A study of Rattus norvegicus with 10 samples.

Results

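The genes described here encode respiratory complexes II to V of mitochondria, measured in the brain of rats after 1 week of calorie restriction (CR, a reduced food supply). Members were the genes whose symbol starts with Sdh followed by a, b, c or d, with Uqcr, Cyc1, Cycs, Cox4 to Cox8 or Atp5. Only probe sets, the groups of short probes that each measure a transcript, that are paired with 1 gene symbol were used, and each gene was represented by its brightest probe set by mean log2 signal. By this rule 49 of 14218 genes were members: 4 subunits and 4 assembly factors of complex II, 8 genes of complex III, 17 of complex IV and 16 of complex V. Another 7 probe sets name a gene of the rule together with other genes and were left out, so *Cycs*, *Uqcrb*, *Cox7a2*, *Atp5mc1* and *Atp5mc2* are not among the members, and *Cox5a* is represented only by a dim probe set.

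The rats were male Wistar, an outbred laboratory strain, bought at 5 weeks of age and restricted from 6 weeks of age. The control group received its full daily intake, and the other 4 groups received 5, 10, 20 or 30% less for 1 week. All 5 groups were fasted for 16 h before sampling, so the controls were fasted too. According to the study's methods, the tissue taken was the area of the hypothalamus, a centre of feeding control. Each group was represented by 1 Affymetrix array hybridised with a pool of RNA from 5 rats. There is therefore no second array of a group, and the spread between rats was not measured. A further 5 arrays from rats restricted for 1 month were not used, because their rows do not follow the probe set identifiers (log2 signals of the 1 week and 1 month columns correlated at only 0.04 to 0.05).

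The respiratory complexes sit in the inner mitochondrial membrane. Complex II, succinate dehydrogenase, passes electrons from succinate to ubiquinone, complex III passes them from ubiquinol to cytochrome c, and complex IV passes them to oxygen. Complexes III and IV pump protons, and complex V, ATP synthase, uses the proton gradient to make ATP. Each complex has a few catalytic subunits and, in complexes III to V, many small subunits around them. The catalytic subunits of complexes III and IV that mitochondrial DNA encodes are not among the members. Neurons depend on this machinery for most of their ATP.

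Genes of these complexes are known to carry promoter sites for the factors NRF1, GABPA (an ETS family factor) and YY1. The letters searched, on both strands, were GCGCA followed by any base and GCGC for NRF1, CCGGAAG for GABPA and AAGATGG for YY1, in windows of 300 bases (250 before and 50 after the gene start) of RefSeq, build GRCr8. A window was found for 42 of the 49 members. The NRF1 letters were in 9 of them (21.4%, against 4.71% of all 27457 promoters), the GABPA letters in 16 (38.1%, against 9.22%) and the YY1 letters in 10 (23.8%, against 7.3%). Among members that rose under CR (described below), GABPA letters were in 9 of 20 windows (45%), NRF1 letters in 3 (15%) and YY1 letters in 6 (30%). Among those that fell they were in 3 (33.3%), 2 (22.2%) and 3 (33.3%) of 9 windows, so each of the 3 motifs was present in both directions. The NRF1 letters were in 4 of 10 windows of large subunits (40%) and in 3 of 27 of small subunits (11.1%), a description without a test. The 250 bases before the start are shown for 2 genes that rose and 2 that fell, chosen as the called members with the largest change in each direction in complex III and in complex V. They are written 5′ to 3′ along the gene, and capitals mark the motif matches. The windows are chr5:134790883-134791132 (minus strand) for *Uqcrh*, chr1:184598990-184599239 (plus strand) for *Uqcrc2*, chr6:136845641-136845890 (minus strand) for *Atp5mpl* and chr18:73567287-73567536 (plus strand) for *Atp5f1a*.
Uqcrh: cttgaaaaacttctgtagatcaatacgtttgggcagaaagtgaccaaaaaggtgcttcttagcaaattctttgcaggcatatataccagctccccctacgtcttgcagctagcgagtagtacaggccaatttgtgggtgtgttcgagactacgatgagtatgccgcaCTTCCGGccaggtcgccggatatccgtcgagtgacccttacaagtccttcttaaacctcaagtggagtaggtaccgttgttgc
Uqcrc2: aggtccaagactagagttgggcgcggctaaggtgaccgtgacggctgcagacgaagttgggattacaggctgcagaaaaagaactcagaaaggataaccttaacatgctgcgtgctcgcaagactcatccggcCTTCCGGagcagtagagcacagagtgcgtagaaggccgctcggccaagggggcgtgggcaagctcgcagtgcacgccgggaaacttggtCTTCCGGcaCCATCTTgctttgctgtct
Atp5mpl: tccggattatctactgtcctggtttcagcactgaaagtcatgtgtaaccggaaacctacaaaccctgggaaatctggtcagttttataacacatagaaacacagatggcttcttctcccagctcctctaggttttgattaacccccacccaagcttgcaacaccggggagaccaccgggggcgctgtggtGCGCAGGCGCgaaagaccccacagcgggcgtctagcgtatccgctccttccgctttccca
Atp5f1a: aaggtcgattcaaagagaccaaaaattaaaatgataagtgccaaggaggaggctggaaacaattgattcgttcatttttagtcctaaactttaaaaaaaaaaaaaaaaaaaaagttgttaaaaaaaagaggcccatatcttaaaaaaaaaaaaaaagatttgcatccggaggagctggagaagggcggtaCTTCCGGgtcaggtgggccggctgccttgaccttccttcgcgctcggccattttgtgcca
The GABPA letters, on the opposite strand, are shared by *Uqcrh*, which rose, and by *Uqcrc2* and *Atp5f1a*, which fell. The window of *Atp5mpl* holds an NRF1 match and no other. A match describes the letters in the window and does not show that a factor binds there.

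The values are MAS5 signals, a summary of perfect-match and mismatch probes on a linear scale with no fixed unit, which the authors scaled to the same trimmed mean (158.8) on all 5 arrays. Signals of different genes are not compared here, because probe sets differ in brightness. The 4 CR arrays were compared with the control array by limma on log2 signals, with Benjamini-Hochberg adjustment over 15521 probe sets and a threshold of 0.05. With 1 control array, its variation was taken to equal that of the CR arrays. An adjusted p rests on the spread among the 4 CR arrays, which differ in CR level. The spread between pools of a group was not measured. An effect of the diet cannot be told apart from a property of the control pool or its array. The control array stood apart: its log2 signals correlated with those of CR arrays at 0.85 to 0.87, against 0.91 to 0.92 among CR arrays, and 24% of its signals were under 10 against 11.7 to 14.4% on the others. Its ratio of 3' to 5' signal, which reads RNA quality and labelling, was also the lowest for GAPDH control probe sets (a log2 ratio of 0.19 against 0.40 to 0.79 on CR arrays) and for beta-actin (1.90 against 2.19 to 2.80), but not for hexokinase (2.44 against 1.23 to 3.09). Apart from hexokinase, these values differ between the control and CR arrays and so go along with every comparison with control below. Their part in the results was not tested. Of 10 hypothalamic neuron markers 9 were on the array, with a summed signal of 17802 in control and 18550 to 20762 under CR. *Pmch*, *Hcrt*, *Avp*, *Oxt* and *Npy* were between 807 and 8942 on every array, *Pomc*, *Sim1* and *Crh* were under 100, and of 7 tested *Npy* rose (1.25) and *Trh* fell (-1.09). In pooled tissue, fewer cells of a type and less RNA per cell cannot be told apart.

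Most complex II to V genes were above control after 1 week of CR, while the large subunits as a class were below it. Of the 49 members, 46 passed the filter on low signals, and of these 26 rose, 9 fell and 11 did not pass the test (limma). Over all 9479 genes tested, 11.6% were called higher and 11.3% lower. Among genes with a mean signal of 1000 or more, where most members lie, 24.5% were called higher and 20.3% lower, and 21 and 8 of 36 such members were. These shares are also the background for the counts of calls by complex and class below, with the authors' scaling. The median log2 difference of all 49 members was 0.46, with a range of -1.33 to 3.27, against a median of -0.02 for all genes tested. By CR level this median was 0.48, 0.52, 0.52 and 0.37 at 5, 10, 20 and 30% CR. All 4 CR arrays were above control for 34 members and all below for 13, and the ranges overlapped for the other 2, *Cox7a2l* and *Cox7b2*. Such a lack of overlap was common: of the 9479 genes tested, 3158 had all 4 CR arrays above control and 3405 all below. Of 942 genes with a mean signal of 1000 or more it was 410 and 387. With the arrays scaled to an equal median log2 signal instead, the median of all genes tested moved to -0.46, that of the members to 0.02, and the calls to 7 higher and 14 lower, so up and down here are relative to the authors' scaling. Without an intensity trend in the variance model, 13 members were called higher and 2 lower.

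**Figure D1:**
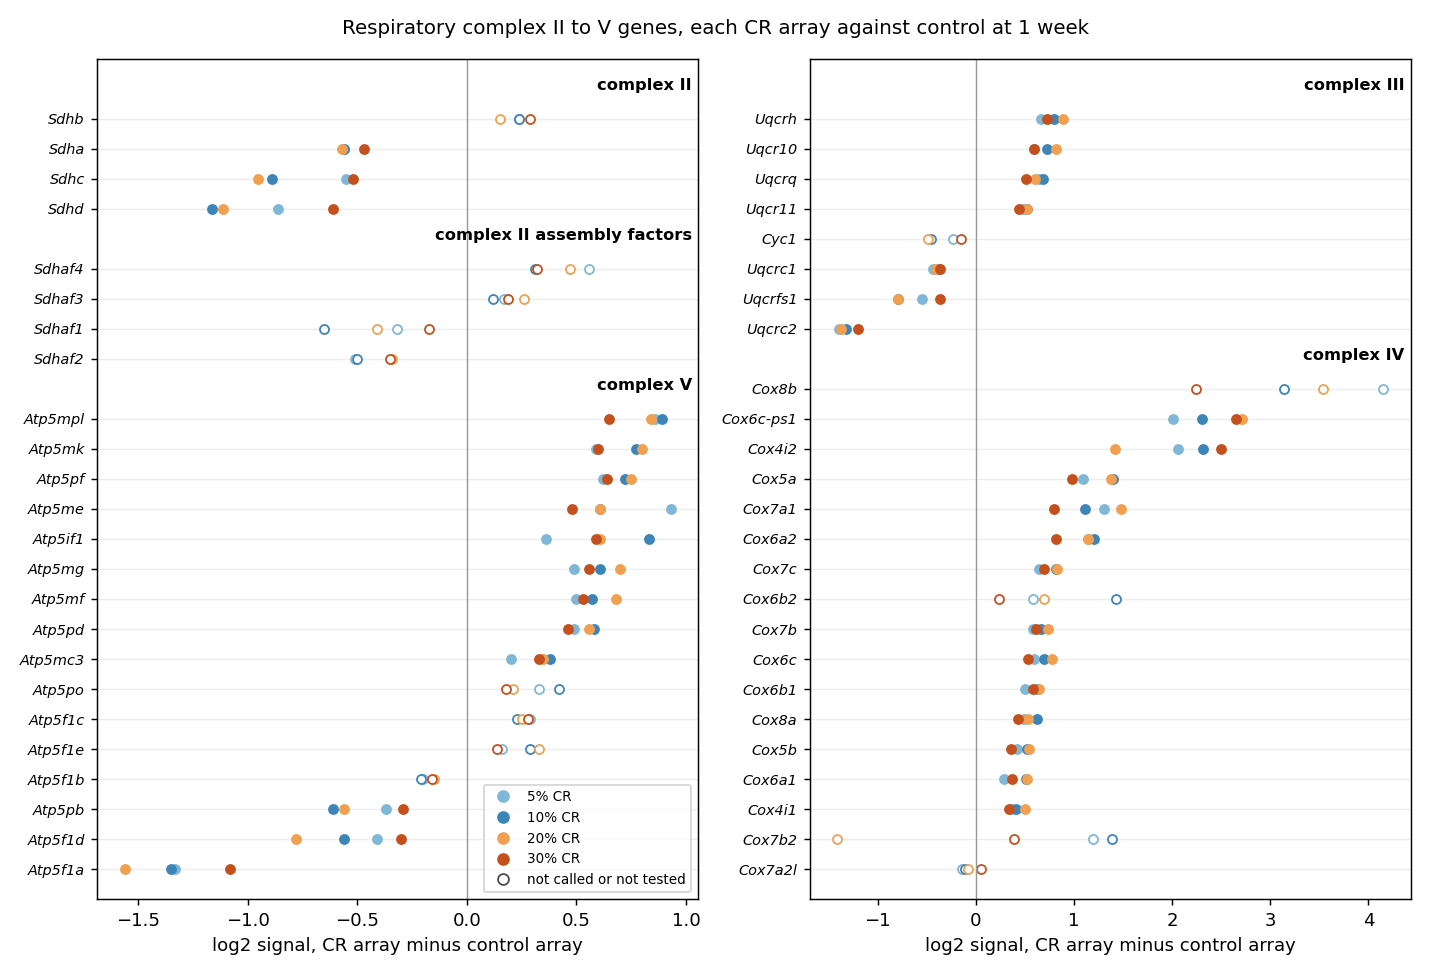
Log2 signal of each CR array minus the control array at 1 week, for each of the 49 members grouped by complex (x axis, log2 difference; 1 point per CR array, colour for the CR level). Filled points are members called by limma, open points are those not called or not tested. Most complex IV and V genes lie to the right of 0, and *Sdha*, *Sdhc*, *Sdhd*, *Uqcrc2* and *Atp5f1a* lie to the left on all 4 CR arrays.

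Most of complex II was below control. Of its 4 subunits, 3 fell and 0 rose by limma (1 was higher at an unadjusted p under 0.05), with a median log2 difference of -0.63, and the 3 that fell did so under each scaling tried. Without an intensity trend in the variance model none of the 3 passed (adjusted p of 0.055 to 0.081). *Sdha*, the flavoprotein that oxidises succinate, had a signal of 2078 on the control array and 1414, 1405, 1405 and 1498 at 5, 10, 20 and 30% CR. All 4 CR arrays lay below control and close to each other, the 30% array being the highest. The log2 difference was -0.54 ± 0.04 (SD over the 4 CR arrays, adjusted p = 0.0057). *Sdhb*, the iron-sulfur subunit that takes the electrons from *Sdha*, had a control signal of 2279.8 and CR signals of 2701, 2702, 2528 and 2793 in the same order of levels. All its CR arrays were above control, but the difference, 0.23 ± 0.06, did not pass (adjusted p = 0.123). With median scaling the difference was -0.20, so its direction depends on the scaling.

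The membrane anchors of complex II, *Sdhc* and *Sdhd*, which bind ubiquinone and haem, both fell. *Sdhc* had 2062 in control and 1409, 1116, 1069.7 and 1439 under CR, a log2 difference of -0.73 ± 0.22 (adjusted p = 0.014). *Sdhd* had 1712 in control and 942, 766, 790.3 and 1125 under CR, a difference of -0.94 ± 0.26 (adjusted p = 0.0072). For both anchors the 10 and 20% arrays were lowest and the 5 and 30% arrays nearer to control, without overlap. A second probe set of *Sdhd* also fell, from 824 to 319, 248, 235 and 312, a log2 difference of -1.58, larger in size than on the brightest probe set.

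None of the 4 complex II assembly factors, which load cofactors and aid maturation of *Sdha* and *Sdhb*, passed the test in either direction (limma, with 1 higher and 1 lower at an unadjusted p under 0.05). *Sdhaf1*, needed for iron-sulfur insertion, had 581 in control and 466, 371, 439 and 514 under CR (-0.39 ± 0.20, adjusted p = 0.151). *Sdhaf2*, needed for FAD attachment, was at -0.43 ± 0.09 (adjusted p = 0.084). *Sdhaf3* was at 0.19 ± 0.06 and *Sdhaf4* at 0.41 ± 0.12 (adjusted p = 0.411 and 0.055), each with all 4 CR arrays above control. With median scaling *Sdhaf3* and *Sdhaf4* stood at -0.25 and -0.02. Calls appeared under other scalings: *Sdhaf1* and *Sdhaf2* were lower with median scaling (-0.82 and -0.86, adjusted p = 0.0081 and 0.004), and *Sdhaf4* was higher with quantile scaling and cyclic loess (0.52 and 0.45, adjusted p = 0.031 and 0.046).

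Complex III was divided by subunit size. All 4 small subunits rose, 3 of the 4 large ones fell, and the median of the 8 genes was 0.08 (-0.01 with cyclic loess and -0.36 with median scaling). *Uqcrc2*, a large core protein that faces the matrix, had the largest fall of the 8: its signal was 1934 in control and 739.7, 774, 746 and 839 under CR. The CR arrays lay close together, all far below control, a log2 difference of -1.32 ± 0.08 (adjusted p = 2.6e-04) or 2.50-fold. Its second probe set fell from 1166 to 153, 144, 85.5 and 119, a difference of -3.26. The other core protein, *Uqcrc1*, had 2149.6 in control and 1583, 1669, 1614 and 1674 under CR. It fell by less (-0.40 ± 0.04, adjusted p = 0.021), and with the 5% array left out the difference was -0.38 (adjusted p = 0.055).

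The catalytic subunits of complex III were lowest at 10 and 20% CR. *Uqcrfs1*, the Rieske iron-sulfur protein, had 2305 in control and 1579.7, 1336, 1335 and 1800.0 under CR and fell (-0.62 ± 0.21, adjusted p = 0.022). *Cyc1*, cytochrome c1, which hands electrons to cytochrome c, had 2175 in control and 1856, 1579.9, 1551 and 1957 under CR. Its CR arrays were all below control, but the difference, -0.33 ± 0.17, did not pass (adjusted p = 0.119). With median scaling it was called lower (-0.77, adjusted p = 0.0039).

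The small subunits of complex III rose on all 4 CR arrays. *Uqcrh*, the acidic hinge protein that helps *Cyc1* meet cytochrome c, had 3202 in control and 5076, 5591, 5928 and 5315 under CR, a log2 difference of 0.77 ± 0.10 (adjusted p = 0.0011). *Uqcr10*, a subunit next to *Cyc1* and the Rieske protein, had 3084 in control and 4642, 5100.4, 5447 and 4649.9 under CR (0.68 ± 0.11, adjusted p = 0.0026). Both peaked on the 20% array. *Uqcrq* had 2060.0 in control and 3209.9, 3299, 3131 and 2943 under CR (0.61 ± 0.07, adjusted p = 0.0028), and *Uqcr11* had 2598 and 3616, 3737, 3713 and 3532 (0.49 ± 0.04, adjusted p = 0.0053). No CR array of these 4 genes reached down to the control signal. With median scaling all 4 kept differences above 0, and *Uqcr10*, *Uqcrq* and *Uqcr11* (0.25, 0.17 and 0.05) no longer passed.

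**Figure D2:**
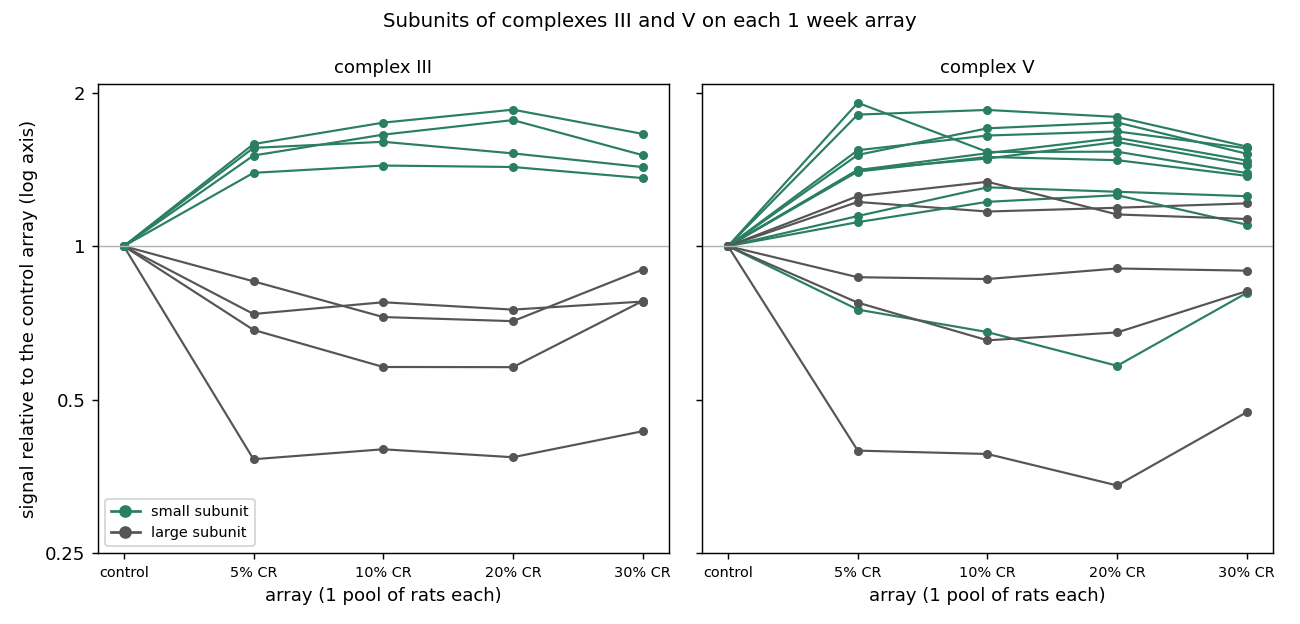
Signal of each subunit of complex III (left) and complex V (right) on each 1 week array divided by its control signal (y axis, log scale; x axis, the control and 4 CR arrays, 1 pool of rats each; 1 line per gene, green for small and grey for large subunits). In complex III the 4 small subunits lie above the control level and the 4 large ones below it on every CR array, and in complex V *Atp5f1a* lies lowest at every CR level.

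Nearly all tested genes of complex IV rose. Of 17 genes, 14 passed the filter, and of these 13 rose and 0 fell by limma (0 lower at an unadjusted p under 0.05), or 5 and 1 with median scaling. With control and CR weighted equally in the filter 12 passed and 11 rose, since *Cox4i2* and *Cox6c-ps1* passed only through their CR arrays. The median log2 difference of the 17 was 0.65 (0.42 with quantile and 0.21 with median scaling). The group holds no large subunit, since those are encoded in mitochondrial DNA, and it falls into 9 genes with a control signal of 1000 or more and 8 with a control signal under 200. Among the 9 bright genes 8 rose, with a median of 0.52.

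The widely used subunits of complex IV rose by similar amounts. *Cox4i1*, the common form of subunit IV, which takes part in regulation by ATP, had 5455 in control and 7064, 7267, 7718 and 6896 under CR (0.41 ± 0.07, adjusted p = 0.013). *Cox6a1* had 3754 in control and 4574, 5362, 5379.6 and 4865 under CR (0.42 ± 0.11, adjusted p = 0.023). With median scaling these genes stood at -0.03 and -0.01, so their direction depends on the scaling. *Cox6b1*, which links the monomers of the enzyme on the cytochrome c side, had 3380.5 and 4772, 5189.5, 5266 and 5041 (0.58 ± 0.06, adjusted p = 0.0026). *Cox7b* had 4233 and 6349, 6676, 7057 and 6474 (0.65 ± 0.07, adjusted p = 0.0015), and *Cox8a*, the widely used form of the smallest subunit, had 4731 and 6658, 7271, 6845 and 6384 (0.52 ± 0.08, adjusted p = 0.0049). In each of these genes all 4 CR arrays were above control. With median scaling *Cox6b1*, *Cox7b* and *Cox8a* stood at 0.15, 0.21 and 0.08 and were no longer called. The other bright subunits that rose were *Cox7c* (0.75 ± 0.10), *Cox6c* (0.65 ± 0.11) and *Cox5b* (0.46 ± 0.08), with adjusted p of 0.0013, 0.0029 and 0.011. With median scaling *Cox7c* (0.31) kept its call, while *Cox6c* and *Cox5b* stood at 0.21 and 0.02 without one. *Cox7a2l*, a factor that joins complexes III and IV into supercomplexes, was the bright gene without a call as reported. Its signal was 1899.8 in control and 1725, 1759, 1803 and 1961 under CR, so the 30% array lay above control and the others below (-0.07 ± 0.08, adjusted p = 0.688, or -0.51 and 0.012 with median scaling).

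The dim genes of complex IV were mostly tissue isoforms, and their differences were larger and less certain. Over all genes with a mean signal under 200, the median difference was 0.35, and over those of them that passed the filter it was 0.05. *Cox4i2*, the lung form of subunit IV, had 19.9 in control and 82.9, 98.8, 53.2 and 112 under CR, a difference of 2.07 ± 0.47 (adjusted p = 0.01, 0.097 with quantile scaling). *Cox6a2*, the heart and muscle form of subunit VIa, had 72.5 and 160.1, 166, 160.2 and 128 (1.08 ± 0.17, adjusted p = 0.013). *Cox7a1*, the heart and muscle form of subunit VIIa, had 78.5 and 195, 169, 219.5 and 137 (1.18 ± 0.29, adjusted p = 0.014). The 30% array was lowest for the muscle forms and highest for *Cox4i2*, and no CR array overlapped with control. *Cox5a*, a subunit on the matrix side, had 130.5 and 277, 345, 340.0 and 258 on its dim probe set (1.21 ± 0.21, adjusted p = 0.0032). *Cox6c-ps1*, a pseudogene of *Cox6c* by its symbol, had 19.6 and 78.8, 96.6, 128 and 123 (2.42 ± 0.33, adjusted p = 0.0019), and whether its probes also read *Cox6c* was not tested. With the equal-weight filter, which drops *Cox4i2* and *Cox6c-ps1*, 24 members in all were called higher and 9 lower.

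The other 3 dim genes did not pass the filter and were not tested. *Cox8b*, the heart and muscle form of subunit VIII, had 1.8 in control and 31.9, 15.9, 20.9 and 8.5 under CR. *Cox6b2*, a testis form, had 30.0 and 45.0, 80.9, 48.5 and 35.5, and *Cox7b2*, also a testis form, had 14.9 and 34.1, 39.1, 5.6 and 19.5, on both sides of control. All signals of these 3 genes were under 100, where MAS5 values are noisy. Of the 5 skeletal muscle markers on the array, 2 were tested and 1 was called higher, the summed signal being 2007 in control and 4089 to 5281 under CR. Nearly all of this was *Myh1* (1822 in control, 3712 to 5029 under CR), while *Ckm*, *Myh4* and *Tnnt3* were at 2.6 to 66.6 on the 5 arrays, and the part of muscle in the signal of the muscle isoforms was not tested. Pituitary markers summed to 970 in control and 1982 to 2825 under CR, with 3 of 3 tested genes called higher, and their part was not tested either. Choroid plexus markers summed to 162 in control and 282 to 386 under CR, with 1 of 2 tested genes called higher (*Ttr*, 35.5 in control and 110.5 to 203 under CR). The list did not move as a whole: *Kcne2* and *Folr1* had log2 differences of 2.87 and 0.29, and *Kl* and *Aqp1* of -1.11 and -0.57. The part of choroid plexus was not tested. Blood markers summed to 5156 in control and 5369 to 8031 under CR, with 0 of 2 tested genes called. Nearly all of this sum was *Hbb* (5044 in control, a log2 difference of 0.37). *Alas2* went the other way, with 111.9 in control and 54.7 to 96.3 under CR (-0.71). Among markers of other brain cells the sums were 18256 in control and 16145 to 17225 under CR for oligodendrocytes (3 of 6 tested genes lower), 15820 and 16444 to 17636 for astrocytes (1 of 5 higher and 1 lower) and 10868 and 9510 to 10270 for neurons in general (1 of 5 higher and 2 lower).

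Complex V moved in both directions. Of its 16 genes 9 rose, 3 fell and 4 did not pass, with a median log2 difference of 0.42. With median scaling 1 rose and 4 fell, and the median was -0.02. The catalytic head, F1, held most of what did not rise. *Atp5f1a*, the alpha subunit, which forms the catalytic ring with beta, had 2913 in control and 1158, 1141, 989.8 and 1378 under CR. All CR arrays were far below control, lowest at 20% and highest at 30%, a difference of -1.33 ± 0.20 (adjusted p = 6.0e-04) or 2.51-fold. *Atp5f1b*, the beta subunit that holds the catalytic sites, had 4239 and 3685, 3655, 3833 and 3795, below control on all 4 arrays and not past the test (-0.18 ± 0.03, adjusted p = 0.186). It was called lower with median scaling, quantile scaling and cyclic loess (-0.62, -0.39 and -0.32, adjusted p = 0.0013, 0.007 and 0.025). *Atp5f1c*, the gamma shaft that turns inside the ring, had 3820.5 and 4664, 4467, 4543 and 4634, above control on all 4 arrays and not past the test (0.26 ± 0.03, adjusted p = 0.062). With median scaling its difference was -0.17. Thus the alpha and beta subunits, which the enzyme holds in equal number, had differences of -1.33 and -0.18.

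The foot of the rotor also split. *Atp5f1d*, the delta subunit, had 1963 in control and 1474, 1332, 1144 and 1589.8 under CR and fell (-0.51 ± 0.21, adjusted p = 0.045). With the 5% or the 10% array left out the difference was -0.55 or -0.50 and did not pass (adjusted p = 0.053 and 0.075). Its partner *Atp5f1e*, the epsilon subunit, was above control on all 4 arrays without passing (0.23 ± 0.10, adjusted p = 0.154). With median scaling *Atp5f1e* was at -0.21. *Atp5mc3*, a gene for the c ring through which protons pass, had 4649 and 5325, 6062, 5942 and 5824 (0.31 ± 0.08, adjusted p = 0.047). With the 10, 20 or 30% array left out it was at 0.29, 0.30 and 0.31 and did not pass (adjusted p = 0.089, 0.072 and 0.059), and with median scaling its difference was -0.12.

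In the peripheral stalk, which holds the head still, the membrane-anchored b subunit fell and the small ones rose. *Atp5pb*, the b subunit, had 3824 in control and 2964, 2501, 2591 and 3123 under CR (-0.46 ± 0.15, adjusted p = 0.031), and with the 10% or the 20% array left out the difference was -0.41 or -0.42 and did not pass (adjusted p = 0.052 and 0.05). *Atp5pf*, coupling factor 6, had 3054 and 4708, 5031, 5125 and 4748 and rose (0.68 ± 0.06, adjusted p = 0.0012). *Atp5pd*, the d subunit, rose as well (0.52 ± 0.06, adjusted p = 0.0041). *Atp5po*, the OSCP subunit that joins stalk and head, was above control on all 4 arrays without passing (0.28 ± 0.11, adjusted p = 0.099). With median scaling *Atp5pf*, *Atp5pd* and *Atp5po* stood at 0.25, 0.09 and -0.15 without a call.

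The small membrane subunits of complex V, which shape the dimer and the cristae, all rose with the authors' scaling. With median scaling their differences were smaller, 0.13 to 0.37, and only *Atp5mpl* kept its call. Without an intensity trend *Atp5me*, *Atp5mf* and *Atp5mg* lost theirs. *Atp5mpl* had 1389 in control and 2515, 2568, 2488 and 2177 under CR (0.81 ± 0.11, adjusted p = 0.0014). *Atp5mk*, also called DAPIT, had 5074 and 7658, 8635, 8864 and 7698 (0.69 ± 0.11, adjusted p = 0.002). *Atp5me*, subunit e, had 1300.3 and 2483, 1989, 1991 and 1808 (0.66 ± 0.19, adjusted p = 0.013), highest at 5% and lowest at 30% CR. A second, dim probe set of *Atp5me*, at 18.1 in control, stood at -0.57 and was not tested, and with the median over both probe sets the difference was 0.04 (adjusted p = 0.953). Subunits f and g, *Atp5mf* and *Atp5mg*, rose by 0.57 and 0.59 (adjusted p = 0.0035 and 0.0038). *Atp5if1*, the inhibitor that stops ATP synthase from running backwards, had 1541 and 1981, 2732, 2347 and 2322 (0.60 ± 0.19, adjusted p = 0.019), with the 5% array nearest to control. With median scaling *Atp5if1* stood at 0.16 without a call. It has 2 dim probe sets besides, and the median over its 3 probe sets gave 1.52 (adjusted p = 0.089).

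Large and small subunits were compared across the complexes. The large ones were *Sdha*, *Sdhb*, *Uqcrc1*, *Uqcrc2*, *Uqcrfs1*, *Cyc1*, *Atp5f1a*, *Atp5f1b*, *Atp5f1c*, *Atp5pb* and *Atp5po*, and the small ones the other 32 subunits, by general knowledge of their size. The assembly factors, the pseudogene and the inhibitor were in neither class. Of 11 large subunits 0 rose, 6 fell and 5 did not pass (limma), while at an unadjusted p under 0.05 there were 3 higher (*Sdhb*, *Atp5f1c* and *Atp5po*) and 7 lower. The median log2 difference was -0.40 (range -1.33 to 0.28). Of the 32 small subunits 29 were tested, of which 24 rose, 3 fell and 2 did not pass, and the median of the 32 was 0.60. The 3 small subunits that fell were *Sdhc*, *Sdhd* and *Atp5f1d*. All 11 large and 25 of the 32 small subunits had a control signal of 1000 or more, and of all genes with a mean signal of 1000 or more 24.5% were called higher and 20.3% lower. The counts depended on the settings: with median scaling 0 large subunits were higher and 8 lower, and 6 small ones higher and 4 lower, and without an intensity trend the counts were 0 and 2 for large and 12 and 0 for small subunits. With median scaling the class medians were -0.83 and 0.16, with quantile scaling -0.39 and 0.41, and with cyclic loess -0.44 and 0.42, so the median of the large class was below 0 and that of the small class above it under each of these scalings.

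The gap did not have the same size in each complex. In complex III the medians were -0.51 for 4 large and 0.65 for 4 small subunits, with no overlap between the classes. In complex V they were -0.18 for 5 large and 0.58 for 10 small subunits, which overlapped. In complex II the order was the opposite, -0.15 for 2 large and -0.83 for 2 small subunits. The 16 small subunits of complex IV had a median of 0.65. The gap was nearly as large without the dim genes: the 25 small subunits with a control signal of 1000 or more had a median of 0.57, with 20 higher and 3 lower.

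**Figure D3:**
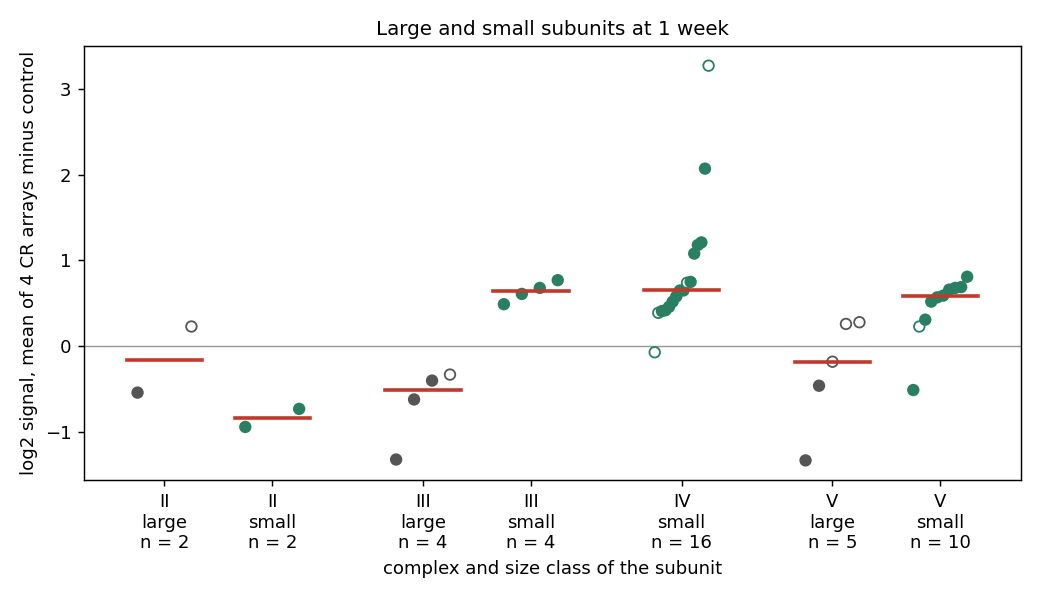
Mean log2 signal of the 4 CR arrays minus the control array for each subunit, by complex and size class (y axis, log2 difference; grey points large subunits, green points small subunits, open points not called or not tested, red bars the class medians). The small subunits of complexes III, IV and V have medians of 0.65, 0.65 and 0.58, and the large subunits of complexes III and V -0.51 and -0.18, while in complex II the small anchors lie lowest.

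A division by function gave a similar picture. The 16 core subunits, which carry electrons, anchor complex II or form the catalytic, rotor and stalk parts of ATP synthase, had a median of -0.26, with 3 higher (*Atp5pf*, *Atp5pd* and *Atp5mc3*), 7 lower and 6 not called. The 27 supernumerary subunits, which surround them, had a median of 0.65, and of 24 tested 21 rose and 2 fell. Of all genes tested 11.6% were called higher and 11.3% lower, and of those with a mean signal of 1000 or more 24.5% and 20.3%. With median scaling 0 core subunits rose and 9 fell (median -0.69), and 6 supernumerary ones rose and 3 fell (median 0.21). Without an intensity trend 1 core subunit rose and 1 fell, against 11 and 1 supernumerary ones. As reported, the 2 supernumerary subunits that fell were *Uqcrc1* and *Uqcrc2*, the large core proteins of complex III that do not carry electrons. Size and function share most of their members and cannot be told apart with these genes.

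At single CR levels, a member was counted when it was 1.5-fold or more from control. At 5% CR 14 of 46 tested members were that much higher and 3 lower, against 16% and 13.8% of all genes tested. At 10% CR it was 19 higher and 7 lower (16.8% and 15.9% of all genes), and at 20% CR 19 and 6 (17.4% and 17%). At 30% CR it was 13 higher and 3 lower (15.3% and 12.6%). The 4 comparisons share the control array, so they are not independent. As over all genes tested, members that far from control were most numerous at 10 and 20% CR and not at the strongest restriction.

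No member was called in a linear trend over the 4 CR arrays. With 2 residual degrees of freedom, 0 of 46 members and 0% of all genes tested were called by limma, and 1 member (*Atp5me*) had an unadjusted p under 0.05, against 4.35% of all genes tested. The slope of *Atp5me* was -0.15 log2 units per 10 percentage points of CR (limma, adjusted p = 0.999). The next lowest slopes were those of *Cox7a1* (-0.14) and *Cox6a2* (-0.13), and the highest those of *Cox6c-ps1* (0.26), *Sdhd* (0.12) and *Sdhaf1* (0.10), none of which passed. A straight line does not describe a member that was farthest from control at 10 and 20% CR.

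The gap between small and large subunits also took different values on the CR arrays, a description without a test. With each gene centred on its own mean over the 5 arrays, the median of small minus large subunits was -0.80 in control and 0.10, 0.30, 0.31 and 0.06 at 5, 10, 20 and 30% CR. Centred on the 4 CR arrays alone it was -0.06, 0.07, 0.14 and -0.13. Of the 32 small subunits, 10, 25, 23 and 6 were above their own CR mean at 5, 10, 20 and 30%, and of the 11 large ones 6, 3, 1 and 10, while over all genes tested the share was 52.1, 49, 48.7 and 55.8%. The 30% array was thus nearest to control by this gap. The arrays stood in the same order, control, 30, 5, 10 and 20% CR, by the log2 3'/5' ratio of GAPDH, which was 0.19, 0.40, 0.51, 0.74 and 0.79. The beta-actin ratio was also lowest in control (1.90) and next lowest at 30% CR (2.19), followed by 2.31, 2.46 and 2.80 at 5, 20 and 10% CR. The hexokinase ratio did not follow this order, with 2.44 in control and 1.23, 1.67, 1.57 and 3.09 at 5, 10, 20 and 30% CR. The part of RNA quality or labelling in the gap was not tested.

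**Figure D4:**
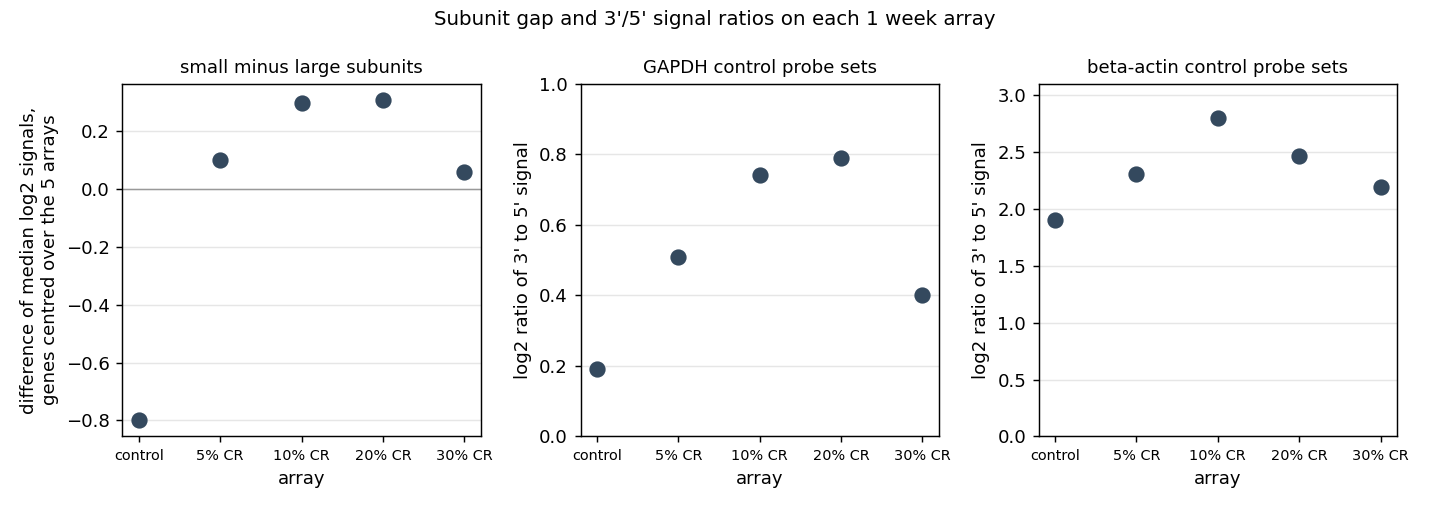
Left, median of the 32 small minus that of the 11 large subunits on each 1 week array, in log2 units with each gene centred over the 5 arrays. Middle and right, log2 ratio of 3' to 5' signal of the GAPDH and beta-actin control probe sets on the same arrays (1 point per array, the left axis does not start at 0). The control array is lowest in all 3 panels, at -0.80, 0.19 and 1.90, and the 30% CR array is next lowest.

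Other genes of the pathway were called in both directions. Of 47 genes listed as assembly factors, carriers and regulators, 43 were on the array and 37 were tested, of which 4 rose and 6 fell, against 11.6% and 11.3% of all genes tested. The median log2 difference of the 43 was -0.19, and with median scaling 2 rose and 20 fell. Among 22 tested assembly factors 4 rose and 1 fell. *Cox10*, which makes the haem A precursor, had 109 in control and 247, 182, 237 and 210.3 under CR (1.00, adjusted p = 0.011). *Pet100*, a complex IV assembly factor, was at 0.93 (adjusted p = 0.0018), and *Cox17*, the copper chaperone, at 0.87 (adjusted p = 8.9e-04). The factor that fell was *Coa5*, at -0.76 (adjusted p = 0.0097).

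Carriers that feed complex V were mostly below control. Of 7 genes tested, carriers, pores and the import gene *Tomm20*, 4 fell and no other passed, with a median of -0.51. Of all genes tested 11.3% were called lower, and of those with a mean signal of 1000 or more 20.3%. The ADP/ATP carriers *Slc25a4* and *Slc25a5* were at -0.58 and -0.51 (adjusted p = 0.026 and 0.028), the phosphate carrier *Slc25a3* was at -0.63 (adjusted p = 0.0025), and *Vdac2*, a pore of the outer membrane, was at -0.75 (adjusted p = 0.0047). Of 8 tested regulators of mitochondrial genes 1 fell, *Tfb2m*, a mitochondrial transcription factor, at -1.52 (adjusted p = 0.017). *Ppargc1a*, a coactivator known to drive genes of these complexes and named here after its values were seen, had 157 in control and 113, 128, 112 and 166 under CR, on both sides of control and without passing (adjusted p = 0.471).

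Complex I, the first complex of the chain, oxidises NADH. Of its 35 subunits 18 rose and 3 fell, with a median of 0.45. Its 6 core subunits in the nuclear genome that were on the array had a median of -0.09, with 0 higher and 2 lower, and the other 29 a median of 0.55, with 18 higher and 1 lower. Over all genes tested 11.6% were called higher and 11.3% lower, and over those with a mean signal of 1000 or more 24.5% and 20.3%. Cytosolic ribosomal proteins, which are also short and abundant, had a median of 0.42 over 42 genes, with 24 of 39 tested genes higher and 2 lower. The rise of small subunits is therefore not shown to be particular to complexes II to V.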

How the data were processed

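RNA of 5 rats per group was measured on 1 Affymetrix rat array per group, and 5 arrays at 1 week were used. The signal intensity deposited by the authors is a MAS5 value on a linear scale, with MAS5 named in the submitters' processing notes, scaled so that the mean after trimming was 158.8 on each 1 week array. Detection calls were not used here. Values on a low signal are noisy because MAS5 subtracts mismatch signal. The platform annotation pairs 20832 of the 31099 probe sets with 1 gene symbol, 436 with several and 9831 with none. All 49 member symbols matched RefSeq's gene table (assembly GRCr8) through their Entrez identifiers.

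Signals were taken as log2, with 4 values of 0 set to 0.1, and 57 control probe sets were left out. Probe sets above the 50th percentile of mean log2 signal (15521) were fitted in R 4.3.3 with limma 3.58.1 (lmFit, eBayes with an intensity trend), 4 CR arrays against 1 control array with 3 residual degrees of freedom, and adjusted by Benjamini-Hochberg with a threshold of 0.05. The trend over CR level used 4 arrays and 2 residual degrees of freedom. Python 3.11.15 with pandas 2.3.3, numpy 2.4.6 and matplotlib 3.10.9 did the rest. The fit was also run on simulated data, where 14.9, 56.7 and 86.4% of changes of 1.5, 2 and 4-fold were called, with 10 false calls. The simulated control was given the variation of the CR arrays, so this run cannot test that assumption. The number of arrays limits the precision, and SDs are over the 4 CR levels, which are not replicates.

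The members, the lists of other pathway genes, markers and size classes, and the tests were chosen with earlier results of these data known. Named genes were, in complexes III, IV and V, the 5 largest increases and the 4 largest decreases among called members without overlap, all complex II subunits, *Cyc1*, tissue isoforms, the 3 largest slopes in each direction and up to 3 other pathway genes per direction. The carriers *Slc25a3*, *Slc25a4* and *Slc25a5* and the regulator *Ppargc1a* fall outside this rule and were named after their values were seen. The remaining members are given so that every member is described. Size classes follow a list by name, since no table of proteins was used. Alternatives were median, quantile and cyclic loess scaling, no filter, a filter at the 75th percentile or with control and CR weighted equally, a pseudocount of 13.7 (the 20th percentile of signals), eBayes without a trend or robust, each CR array left out, the median over probe sets, a limit of 2-fold in place of 1.5-fold and a trend that takes the control array as 0%. Members with a control signal of 1000 or more, and CR arrays without the control, were added after seeing the data.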

Additional observations from a re-analysis of the deposited data

Results flagged for a closer look

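For 35 named members the 4 CR arrays were searched for an array far from the other 3. In *Sdha* the 30% CR array was highest (1498, against 1405 to 1414 at the other levels), with a gap to the next array of 0.898 of the whole range. In *Cox6a2* the 30% CR array was lowest (127.7, against 160.1 to 166.2), with a gap of 0.858 of the range. Chance flags about 1 in 20 such groups, so 2 of 35 is close to what chance gives. The arrays are different CR levels and not replicates of a group, and each of these 30% CR arrays stayed on the same side of control as the others.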

How the results depend on the processing

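The gap between large and small subunits and that between core and other subunits kept its direction under each alternative that could change it. Median scaling, the filters and the variance models leave both gaps unchanged by construction, since they compare class medians over all members. Large minus small was -0.99 as reported, -0.80 with quantile scaling and -1.03 to -0.98 when a CR array was left out, and core minus other was -0.90, with -0.95 to -0.82 when an array was left out. With median scaling 7 members were higher and 14 lower, and the medians were 0.02 for all members, -1.07 for complex II, -0.36 for III, 0.21 for IV, -0.02 for V and -0.54 for assembly factors. With quantile scaling they were 0.28 for all members, 0.02 for complex III, 0.42 for IV, 0.23 for V and -0.01 for assembly factors, and with cyclic loess 0.30, -0.01 for III, 0.43 for IV and 0.25 for V. With median scaling 25 members were above control and 24 below, against 35 and 14 as reported. Of the members called as reported, it turned *Atp5mc3* to -0.12, *Cox4i1* to -0.03 and *Cox6a1* to -0.01. Of those without a call, it turned *Sdhb* to -0.20, *Atp5f1c* to -0.17, *Atp5f1e* to -0.21 and *Atp5po* to -0.15. *Sdhaf3*, *Sdhaf4* and the untested *Cox7b2* turned to -0.25, -0.02 and -0.04. Median scaling left 2 other pathway genes higher and 20 lower. Without an intensity trend 13 members were higher and 2 lower, and 3 other pathway genes lower, and 20 calls were lost (*Sdha*, *Sdhc*, *Sdhd*, *Uqcrc1*, *Uqcrfs1*, *Uqcr11*, *Cox4i1*, *Cox5b*, *Cox6a1*, *Cox6b1*, *Cox6c*, *Cox8a*, *Atp5f1d*, *Atp5if1*, *Atp5mc3*, *Atp5me*, *Atp5mf*, *Atp5mg*, *Atp5pb* and *Atp5pd*). The median over probe sets gave 0.29 for complex V. Members with a control signal of 1000 or more gave 0.52 for complex IV. At 2-fold, 7, 8, 6 and 3 members were higher and 2, 3, 4 and 2 lower at 5, 10, 20 and 30% CR. The cause of these changes was not tested. With a CR array left out, 25 to 26 members were higher and 7 to 9 lower. The trend over CR level called 0 members under each alternative, including the control as 0%. Size limits other than the list by name, and protein length, were not run, since no protein table was used. No paired analysis was possible because each group has 1 array and the labels carry no replicate numbers. Low signals, with 24% of control signals under 10, limit the dim isoforms most.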
